A study of Arabidopsis thaliana with 42 samples.

Results

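Small RNA of Arabidopsis thaliana leaves held a large class of sequences longer than microRNAs, at 29 to 33 nt, and this class is described here by length, by sequence and by leaf age. Its members are the sequences of 29 to 33 letters, written in DNA letters, that were listed in the count tables of both small RNA sets, with a sequence and its reverse complement counted as 1. There were 8675 such members among 53340 sequences listed in both tables. By length they were 2160 of 29 nt, 1940 of 30 nt, 1729 of 31 nt, 1499 of 32 nt and 1347 of 33 nt.

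Leaves were sampled by age in days after emergence, and the labels give no genotype, treatment or growth conditions beyond organism, tissue and age. Small RNA was sequenced at 7 ages, days 4, 8, 12, 16, 20, 24 and 28, in 2 sets that the submitters call independent biological replicates, which gave 14 libraries. The labels do not say what was separate between the sets, so p-values reflect only how far these libraries scatter, some of which may be technical. Days 24 and 28 are called old, days 12 and 16 mature and days 4 and 8 young, with 4 libraries each, and day 20 enters the fits without a stage. Total RNA of the same series, 28 libraries from day 4 to day 30, served as a check of the tissue. Transcripts of the photosynthesis genes RBCS1A, RCA and CAB1, encoding the small subunit of Rubisco, Rubisco activase and an antenna protein, were between 78.1 and 4329 FPKM in every total RNA library. SAG12, a cysteine protease gene used as a marker of senescence, averaged 2742 ± 555 FPKM at day 30 and was listed at 0 in both day 4 libraries (SD, n = 2). At the 2 ages called old it averaged 18.6 ± 13.2 FPKM at day 24 and 1548 ± 414 FPKM at day 28. The old stage thus joins ages that differ widely in this marker.

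Plant small RNA is best known for microRNAs and small interfering RNAs of 21 to 24 nt, which Dicer-like enzymes cut from longer precursors and Argonaute proteins carry. RNA of about 30 nt lies outside those classes. In plants and other eukaryotes, fragments of tRNA and of ribosomal RNA are known in this size range, and RNase T2 enzymes are among the nucleases known to make them, more so under starvation and stress. A genome sequence was not used here, so the members were not placed on the genome and none is assigned to a gene or RNA class. The tables list sequences in either orientation, so a member's strand is unknown, and "start" and "end" refer to the sequence as printed.

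The sequences on which the results turn are printed 5′ to 3′ as the tables or their reverse complements give them. Each has a name made of its length and a letter, with "a" the most abundant of the named sequences of that length. The first set holds the leading sequence of each of the 7 most abundant families with a shared start or end. Capitals mark a match to the A box letters of tRNA genes, described further on, and sR33c matches these letters in the other orientation, which is not printed.
sR32a: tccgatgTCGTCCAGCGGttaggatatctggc
sR29a: gcgcgcgacctatacccggccgtcggggc
sR32d: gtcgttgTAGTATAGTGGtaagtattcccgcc
sR32c: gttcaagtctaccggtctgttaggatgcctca
sR32b: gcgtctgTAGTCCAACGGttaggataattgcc
sR31b: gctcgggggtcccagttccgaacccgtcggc
sR33c: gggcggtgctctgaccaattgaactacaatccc

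The share of listed reads held by 29 to 33 nt sequences was many times larger in old than in young leaves. In set 1 it was 3.84%, 5.41%, 18.2%, 31.4%, 48.6%, 59.2% and 61.4% at days 4, 8, 12, 16, 20, 24 and 28. In set 2 it was 14.5%, 17.7%, 27.3%, 22.1%, 39.2%, 55.8% and 69.7% at the same days. Every old library was above every mature one, and every mature library was above every young one, with means of 61.5% ± 5.90 in old, 24.7% ± 5.80 in mature and 10.3% ± 6.76 in young leaves (SD, n = 4 each). In young leaves set 2 held the larger share at both ages, and at day 16 set 1 did. Each library listed between 4885885 and 9441375 reads, and 95% Wilson intervals of these shares reach at most 0.0426 percentage points to either side, which covers counting error only. Sequences under the tables' listing limit are not in these totals, and all shares add to 100% in a library, so a larger share of one length lowers the others. In bulk tissue, fewer cells of a type and less of an RNA per cell cannot be told apart.

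The 5 lengths did not follow one course. Sequences of 29 nt held 16.3% ± 4.47 of reads in old, 7.90% ± 3.30 in mature and 1.84% ± 0.960 in young leaves. At day 28 they held 15.2% in set 1 and 10.7% in set 2, against a highest share of 21.2% and 18.0% at day 24. Sequences of 32 nt went on to their highest share at day 28, 25.6% in set 1 and 34.5% in set 2, and averaged 24.6% in old, 7.64% in mature and 3.77% in young leaves. Sequences of 33 nt were likewise highest at day 28, at 10.9% and 13.1%, with means of 9.81% in old, 2.66% in mature and 1.42% in young leaves. The 29 nt share therefore stood lower at day 28 than at day 24 in both sets, while the 32 and 33 nt shares stood higher. Sequences of 31 nt averaged 7.53% in old, 4.19% in mature and 1.99% in young leaves. The 30 nt class was the smallest of the 5 in old leaves, at 3.26%, against 2.36% in mature and 1.32% in young leaves. The lengths on both sides behaved otherwise, with 1.64% in old, 1.91% in mature and 1.55% in young leaves at 28 nt, and 5.14%, 3.04% and 5.86% in the same order at 34 to 48 nt.

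**Figure D1:**
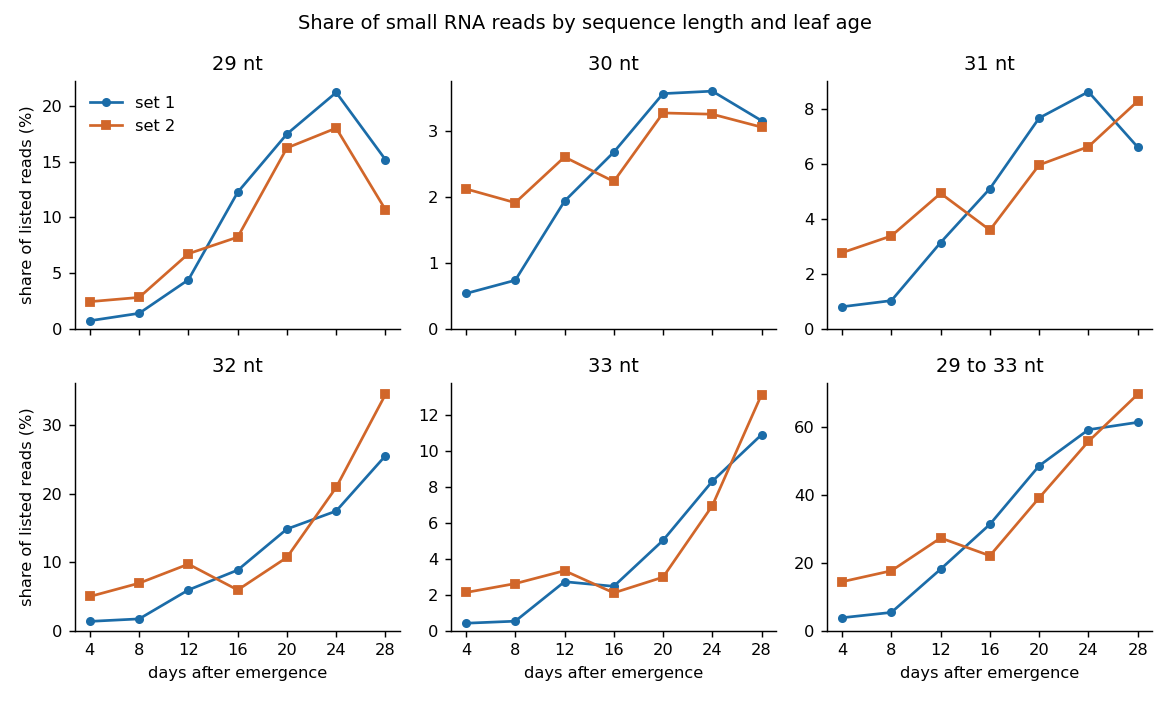
Share of listed reads (%) at each length from 29 to 33 nt and for the 5 lengths together, against leaf age in days after emergence, with 1 line per set and 1 point per library. The 29 nt share peaks at day 24 in both sets, whereas the 32 and 33 nt shares are highest at day 28.

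A handful of sequences carried most of these reads in old leaves. In each of the 4 old libraries, 3 sequences sufficed for 50% of the 29 to 33 nt reads, against 3 to 8 in mature and 10 to 56 in young libraries. The 10 most abundant sequences of a library held 77.2% ± 1.28 of these reads in old, 63.6% ± 6.46 in mature and 45.3% ± 6.95 in young leaves. To reach 90% took 26 to 44 sequences in old, 96 to 727 in mature and 1609 to 2708 in young libraries. Young leaves therefore held a broader mixture, and the 3 stages did not overlap in the number of sequences needed for 90%. The day 4 library of set 2 was the broadest of all, with 35.0% of reads in its 10 leading sequences. Most members were rare, with a median level of 1.77 counts per 1000000 listed reads (CPM) over the 14 libraries, 2062 members under 1 CPM, 104 at 100 CPM or more and 28 at 1000 CPM or more.

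**Figure D2:**
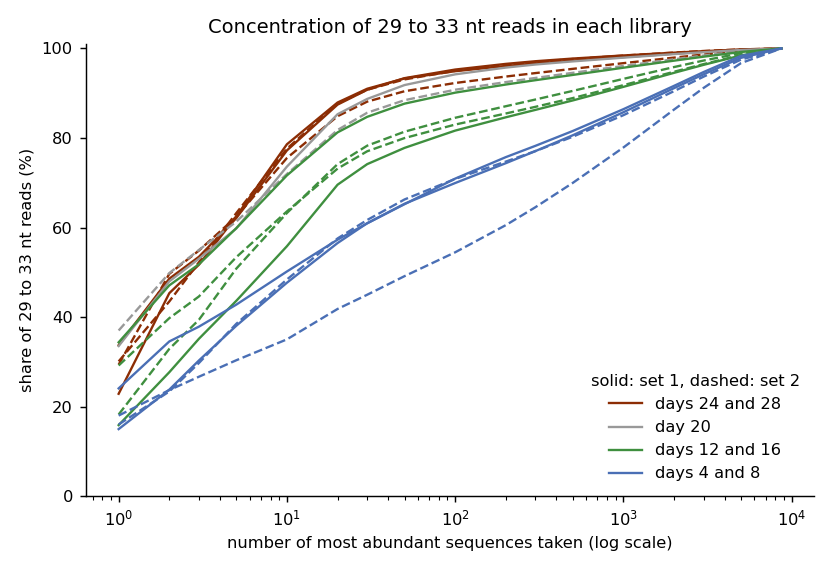
Cumulative share of 29 to 33 nt reads (%) against the number of most abundant sequences taken in each library (log scale), with 1 line per library coloured by stage, solid for set 1 and dashed for set 2. Old libraries reach 75.5% to 78.6% with 10 sequences and young libraries 35.0% to 50.2%.

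The 29 nt class in old leaves was nearly a single sequence. The leading member of that length held 90.8% ± 2.83 of 29 nt reads in old, 76.5% ± 9.35 in mature and 24.3% ± 16.0 in young leaves. In all old and mature libraries that sequence was sR29a. The level of sR29a in set 1 was 133, 4771, 28790, 107744, 162910, 199738 and 138005 CPM from day 4 to day 28, and in set 2 it was 1171, 11233, 49847, 64512, 144854, 163777 and 93214 CPM. Both sets increased at each age up to day 24 and were lower at day 28, and no old library overlapped a young one. The fitted change between old and young leaves was 7.37 ± 0.85 on the log2 scale (SE, adjusted p = 7.57e-05, edgeR quasi-likelihood test with Benjamini-Hochberg adjustment over all 46841 sequences tested). Without the most abundant sequence of this length, the 29 nt share in old minus young leaves was -0.000806 percentage points, against 14.4 with it. The other 2159 members of 29 nt together thus held about the same share of reads in old as in young leaves. The 29 nt reads were also rich in G and C, with a read-weighted mean of 77.0% in old, 73.3% in mature and 58.4% in young leaves, against 55.0% averaged over the 29 nt members.

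The 32 nt class was led by sR32a, which averaged 137778 ± 52452 CPM in old, 31200 ± 10174 in mature and 5186 ± 5451 in young leaves. It stood at 601, 2792, 21448, 39906, 70219, 87965 and 140324 CPM from day 4 to day 28 in set 1, and at 4312, 13037, 40062, 23384, 50261, 113202 and 209623 CPM in set 2. Both sets were highest at day 28, and the single step down was between days 12 and 16 of set 2. The change between old and young leaves was 6.37 ± 0.83 (log2, SE, adjusted p = 0.000163, edgeR) and that between old and mature leaves was 3.05 ± 0.71 (adjusted p = 0.0153). The next sequences of this length in old leaves, sR32b and sR32d, averaged 30625 and 22147 CPM in old, against 1688 and 1494 CPM in young leaves, and both passed with log2 changes of 6.06 ± 0.85 and 5.47 ± 0.71 (adjusted p = 0.000262 and 0.000163). Of the named 33 nt sequences, sR33a averaged 36069 CPM in old, 2282 in mature and 819 in young leaves, and sR33b averaged 26882, 2426 and 886 CPM in the same order. They rose by 6.73 ± 0.81 and 6.29 ± 0.82 between old and young leaves on the log2 scale (adjusted p = 9.26e-05 and 0.000166, edgeR). Among 31 nt sequences, sR31b averaged 19390 CPM in old, 5247 in mature and 693 in young leaves (6.33 ± 0.75 between old and young, adjusted p = 8.7e-05).

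**Figure D3:**
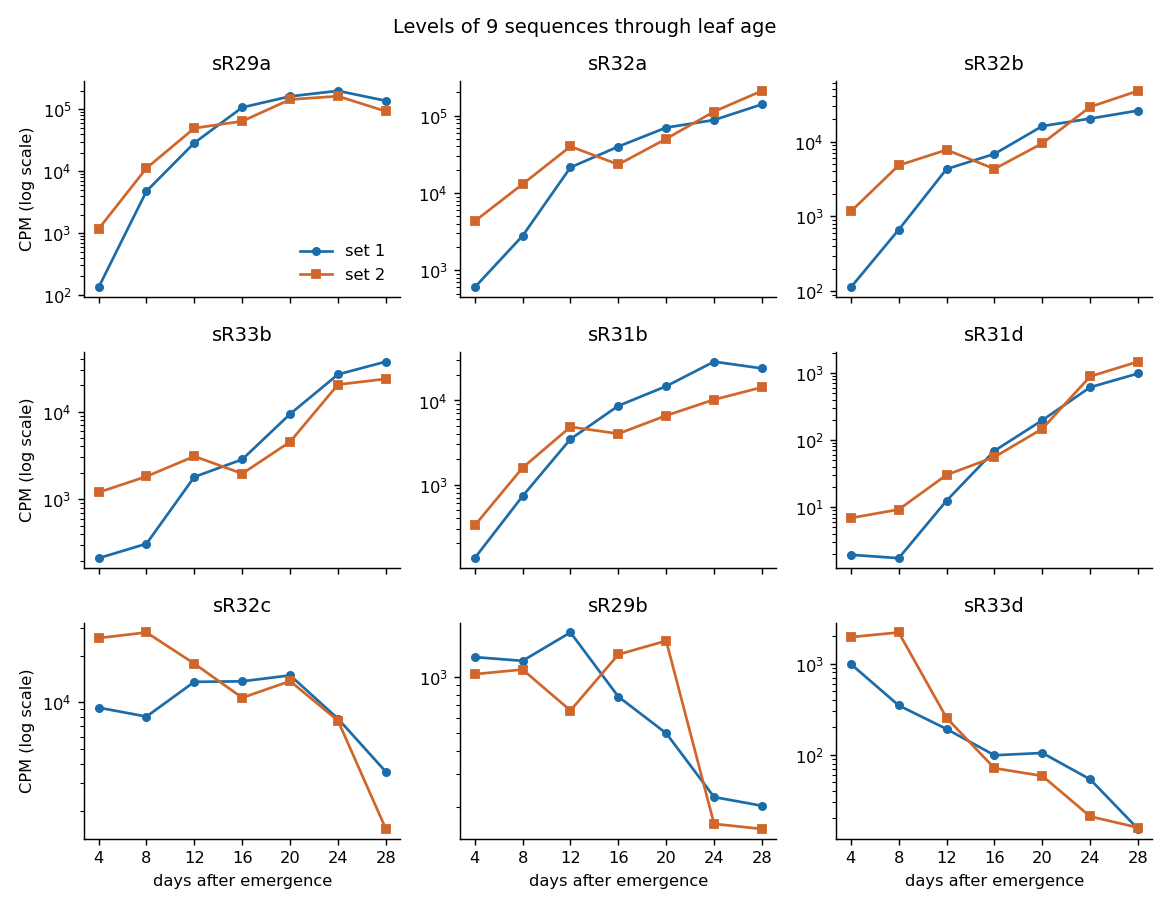
Level (CPM, log scale) of 9 named sequences against leaf age in days after emergence, with 1 line per set and 1 point per library. The 6 sequences of the upper rows are higher in old than in young libraries, sR29a declines after day 24, and sR29b and sR33d are lower in old than in young libraries.

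Abundant members fell into families that shared a start or an end. Of the 104 members at 100 CPM or more, 85 shared their first 15 or last 15 letters with another of them, in 25 groups, and 19 stood alone. All 104 had a neighbour of 1 letter more or fewer at one end among the listed sequences, as had 94.1% of all members, against 56.1% of listed 24 nt sequences. The 5 groups of highest summed level, with 35 members in all, held between 37.2% and 86.6% of the 29 to 33 nt reads of a library. Every old library was above every young library in 13 of the 25 groups and below in 2, and the ranges overlapped in 10. The limit of 100 CPM is a mean over all 14 libraries, so sequences very high in old leaves enter through those libraries. Outside the 5 leading groups, members held 8.98% to 10.99% of all reads in old libraries and 2.13% to 9.07% in young ones. The difference of the means was 4.44 percentage points, against 51.2 for all members. In set 1 these members held 2.13% and 2.75% at days 4 and 8, and 10.99% and 10.8% at days 24 and 28. In set 2 they held 9.07% and 8.42%, and 8.98% and 9.36%, at the same days. Old and young libraries thus overlapped in set 2, and the difference lay mainly in set 1.

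The largest group, led by sR32a, had 18 members of all 5 lengths and summed to 242722 ± 92824 CPM in old, 54185 ± 17682 in mature and 9561 ± 9741 in young leaves. Besides forms that ended at different letters, it held forms of the same length that differed near the start. Against sR32a, with positions counted from 1 at the start as printed, these forms carried A5T, A5T G7A or G4A A5T, shown here at 32 nt with the differing letters in capitals.
A5T: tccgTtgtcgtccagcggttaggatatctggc
A5T G7A: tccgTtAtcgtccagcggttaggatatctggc
G4A A5T: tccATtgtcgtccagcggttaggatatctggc
Over the 14 libraries the A5T form had 4.41% to 6.05% of the count of sR32a, the A5T G7A form 10.7% to 14.96% and the G4A A5T form 1.81% to 3.14%. The ratios thus varied by less than 2 times while sR32a itself varied from 601 to 209623 CPM. Whether these forms stand for separate loci was not tested.

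The second group, led by sR29a, had 4 members and summed to 160205 ± 47615 CPM in old, 69328 ± 35572 in mature and 5187 ± 6007 in young leaves. Its form with 1 more letter at the end, sR30a, averaged 10463 CPM in old and 822 CPM in young leaves (5.71 ± 0.80 on the log2 scale, adjusted p = 0.000251, edgeR). The longer form came to 5.58% to 8.05% of sR29a in old, 8.38% to 13.6% in mature and 14.3% to 30.0% in young libraries. The next groups with higher levels in old leaves, led by sR32d and sR32b, summed to 58837 and 44858 CPM in old leaves, against 3077 and 2398 CPM in young ones. A sixth group, led by sR31b, summed to 30867 CPM in old, 9131 in mature and 1332 in young leaves.

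The fourth group, led by sR32c, went the other way. It summed to 8175 ± 4719 CPM in old, 24136 ± 4529 in mature and 27309 ± 15148 in young leaves, with every old library below every young one. In set 1, sR32c was at 9248, 8099, 13568, 13672, 14945, 7847 and 3563 CPM from day 4 to day 28, and in set 2 at 26004, 28279, 17777, 10712, 13713, 7624 and 1524 CPM. It was lowest at day 28 in both sets, and at day 4 it was the most abundant 29 to 33 nt sequence of both libraries. The fitted change of sR32c between old and young leaves was -0.85 ± 0.53 (log2, SE) and did not pass (adjusted p = 0.278, edgeR), nor did those of its shorter forms sR31c and sR30c (adjusted p = 0.182 and 0.908). With library sizes alone in place of TMM factors, all 3 passed as lower, at -1.92, -1.94 and -1.21 (adjusted p = 0.00714, 0.00366 and 0.0282). The call for this family thus rests on the scaling.

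Within several families the balance of lengths differed between old and mature leaves. A ladder here is a set of 31, 32 and 33 nt members that share a start and differ at the end, and 9 of the 1322 ladders had all 3 forms at 100 CPM or more. These were looked at after the abundant sequences had been seen and are given as a description. The 4 ladders plotted are printed with the letters past position 31 in capitals, to show where the forms end.
Ladder of sR32a: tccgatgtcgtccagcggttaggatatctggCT
Ladder of sR32d: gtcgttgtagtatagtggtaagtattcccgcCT
Ladder of sR32b: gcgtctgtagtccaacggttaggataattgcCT
Ladder of sR33d: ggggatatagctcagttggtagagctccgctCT

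The 33 nt form took a larger share of its ladder in every old than in every mature library in 6 of the 9 ladders, and the 31 nt form a smaller share in 7. Among both counts are the ladders of the A5T, A5T G7A and G4A A5T forms, which belong to the group of sR32a. These ladders are therefore not all separate families. Against young leaves, the 33 nt share was higher in every old than in every young library in 0 of the 9 and lower in 1, and the ranges overlapped in the rest. In the ladder of sR32a, the 33 nt form sR33a held 12.9% to 20.4% in old, 4.76% to 5.82% in mature and 7.36% to 29.03% in young libraries. In the ladder of sR32d, the 33 nt form sR33b held 43.4% to 53.4% in old, 22.1% to 24.6% in mature and 24.7% to 49.7% in young libraries. In the ladder of sR32b it held 16.6% to 21.9% in old, 7.29% to 8.46% in mature and 8.02% to 23.2% in young libraries. In the first 2 of these families every young library also lay above every mature one, so that the share of the longest form was lowest in mature leaves, and in the ladder of sR32b the young and mature ranges overlapped. Their summed levels were lowest in young leaves. Without the day 4 libraries, the young values in the ladder of sR32a are those of day 8, 7.36% in set 1 and 8.46% in set 2.

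The ladder of sR33d showed the plainest exchange of lengths. Its 33 nt form held 1.72% to 2.75% of the ladder in old libraries, 3.05% to 7.57% in mature and 43.4% to 78.2% in young ones. Its 31 nt form held 79.4% to 83.6% in old, 85.6% to 88.1% in mature and 18.6% to 51.0% in young libraries. Neither form's range in young leaves overlapped that of a later stage. In level, sR33d stood at 989, 348, 192, 98.7, 105, 53.7 and 15.3 CPM from day 4 to day 28 in set 1, and at 1950, 2194, 253, 71.2, 58.6, 21.0 and 15.9 CPM in set 2. It fell by 4.59 ± 0.70 on the log2 scale between old and young leaves (26.5 ± 18.3 CPM in old and 1370 ± 857 CPM in young leaves, adjusted p = 0.000468, edgeR). The 31 nt form, which lacks the last 2 letters, averaged 973 ± 648 CPM in old, 2601 ± 674 in mature and 714 ± 640 in young leaves and did not pass between old and young leaves (1.66 ± 0.60, adjusted p = 0.0664). The 32 nt form passed as higher in old leaves (1.98 ± 0.63, adjusted p = 0.0383).

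**Figure D4:**
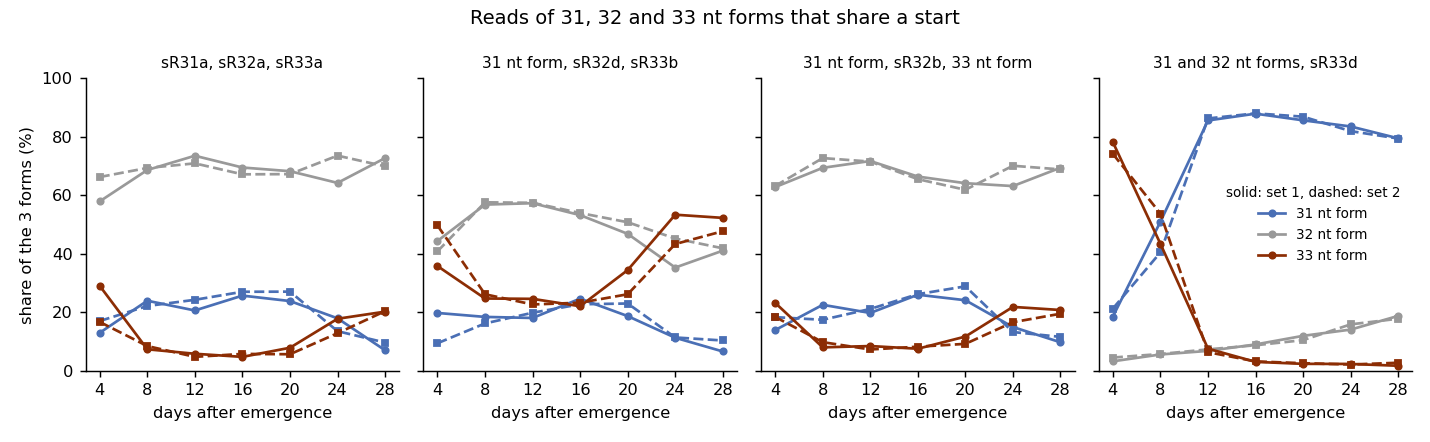
Share (%) of the 31, 32 and 33 nt forms within 4 families of sequences with the same start, against leaf age in days after emergence, solid for set 1 and dashed for set 2. In the 3 families at the left the 33 nt form is lower at days 12 and 16 than at days 24 and 28, and in the family of sR33d at the right it falls to 1.72% to 2.75% in old libraries while the 31 nt form becomes the main one.

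Some members that overlap in their letters are given side by side, with no test of the difference between them. The group led by sR33c had a member, sR29b, that lacks its first 4 letters. Between old and young leaves sR33c rose (6224 ± 2110 CPM in old, 11971 ± 3861 in mature and 2595 ± 2545 in young leaves, 2.71 ± 0.63 on the log2 scale, adjusted p = 0.00767, edgeR) and sR29b fell (186 ± 34.5, 1119 ± 494 and 1151 ± 111 CPM, -1.56 ± 0.46, adjusted p = 0.0276). The count of sR29b was 2.47% to 4.20% of that of sR33c in old, 3.75% to 19.6% in mature and 17.3% to 218% in young libraries. Both calls were lost without the day 4 libraries, at adjusted p = 0.151 for sR33c and 0.0653 for sR29b. With 1 library left out, the call of sR33c was lost without day 4 of set 1 (edgeR, adjusted p = 0.0725), day 24 of set 1 (0.0518) or day 28 of set 2 (0.0540). That of sR29b was lost without day 4 of set 1 (edgeR, adjusted p = 0.0723), day 28 of set 1 (0.0828), day 24 of set 2 (0.0809) or day 28 of set 2 (0.0520). The eighth group, with sR29c and sR30b, overlapped the leading member of the thirteenth group by 24 letters, starting 5 letters later. The overlap is set in capitals below.
sR29c: CTCTCGGCAACGGATATCTCGGCTctcgc
Lead of the thirteenth group: aacgaCTCTCGGCAACGGATATCTCGGCT
In old leaves sR29c averaged 1664 ± 271 CPM and in young leaves 45.9 ± 44.6 CPM (6.83 ± 0.65, adjusted p = 3.3e-05). The sequence that starts 5 letters earlier averaged 228 ± 115 CPM in old and 595 ± 415 CPM in young leaves and did not pass (-0.15 ± 0.35, adjusted p = 0.794).

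A further member of the group of sR33c, sR33e, differs from sR33c by A17G, set in capitals here.
sR33e: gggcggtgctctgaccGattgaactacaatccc
Its count was 2.02% to 16.1% of that of sR33c in old libraries, 0.0580% to 0.124% in mature and 0.0853% to 0.474% in young ones, with no overlap of old with either other stage. In level it averaged 370 ± 169 CPM in old, 11.6 ± 1.98 in mature and 3.75 ± 1.22 in young leaves, and rose by 5.91 ± 0.48 between old and mature leaves (log2, adjusted p = 0.000297, edgeR), where sR33c did not pass (0.04 ± 0.58, adjusted p = 0.973). The difference between the 2 changes was not tested.

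Across all members, calls in old against young leaves were mostly rises under the main scaling. Of the 8013 members that reached 10 counts in 2 or more libraries, 1536 (19.2%) were higher in old than in young leaves, where 13.4% of all sequences tested were called higher, and 176 (2.20%) were lower, where 9.62% of all were (edgeR, TMM factors, adjusted p under 0.05). The median log2 change was 0.35 over tested members and -0.19 over all tested sequences. With library sizes alone, a scaling that shifts the median of all tested sequences to -1.28, 1101 members were higher and 1227 lower, where 8.54% and 38.1% of all were. All 1101 were among the 1536, none of the 1536 was called lower, and all 176 stayed lower. The higher calls made up 89.7% of the members' calls with TMM factors and 47.3% with library sizes alone, so the balance of rises and falls among rare members depends on the scaling. With day 4 left out, 1093 members were higher and 110 lower, where 9.5% and 5.73% of all were. When day 28 of set 2 was left out, 1015 were higher and 78 lower, and the lower count was 102 without day 24 of set 2 and 117 without day 24 of set 1 or without day 4 of set 2.

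The part of the members called higher differed by length. The share higher in old than young leaves was 16.7%, 17.8%, 19.6%, 21.6% and 21.6% of tested members at 29, 30, 31, 32 and 33 nt, and the share lower was 3.66%, 2.07%, 2.35%, 1.44% and 0.718%. The median log2 change was 0.13, 0.24, 0.36, 0.51 and 0.61 at the same lengths, between -0.52 at 18 to 28 nt and 0.71 at 34 to 48 nt. The median thus went on along the same course at shorter and longer lengths than those of the members. Among the 104 abundant members, 66 were higher in old than young leaves, 4 were lower and 34 did not pass, and with library sizes alone 64 were higher and 13 lower. Abundance is a mean over all 14 libraries, so a sequence very high in old leaves counts as abundant through those libraries. This choice favours rises, so the surplus among abundant members is a description only.

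**Figure D5:**
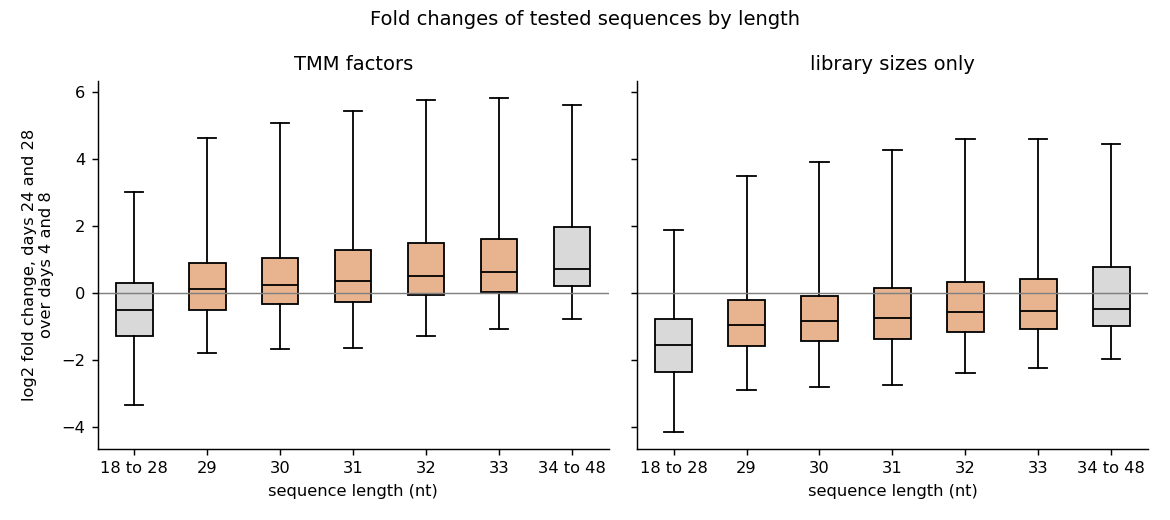
Fitted log2 fold change of old over young leaves for tested sequences by length (nt), with TMM factors at the left and library sizes alone at the right. Boxes show the quartiles and median, whiskers the 5th and 95th percentiles, and the members are coloured, with medians from 0.13 at 29 nt to 0.61 at 33 nt with TMM factors and below 0 at each length with library sizes alone.

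Between old and mature leaves, 1135 members were higher, where 9% of all tested sequences were, and 128 were lower, where 3.76% were. With library sizes alone these counts were 687 and 1033, where 4.8% and 29.5% of all were. Single libraries moved these counts, to 355 higher when day 24 of set 1 was left out, 387 for day 28 of set 2, 455 for day 16 of set 2, 556 for day 12 of set 1, 642 for day 16 of set 1 and 663 for day 12 of set 2. The lower count was between 13 and 49 when any one of the 8 old and mature libraries was left out. Between mature and young leaves, 244 members were higher, where 2.18% of all were, and 6 were lower, where 0.307% were. Without both day 4 libraries, and without that of set 1 alone, edgeR called 0 higher and 0 lower. Of all 43040 sequences tested without both day 4 libraries, 0 were called either way, so this loss was not particular to the members. The count over all sequences without that of set 1 alone is not given here. Leaving out day 16 of set 1 left 2 higher, day 12 of set 2 left 31, and any other library but day 12 of set 1, day 8 of set 2, day 16 of set 2 and day 20 of set 2 left 92 to 150. At an unadjusted p under 0.05 (edgeR), 498 members were higher and 141 lower without both day 4 libraries, and 485 and 161 without that of set 1 alone. An unadjusted threshold also lets unchanged sequences through, and its share over all sequences is not given here. These unadjusted counts are therefore no sign of a remaining change. On all libraries DESeq2 called 338 members higher and 17 lower, where 2.7% and 0.702% of all were. Over the 7 days, 1095 members changed (F test), where 9.98% of all tested sequences did. When 1 library was left out, 519 did without day 28 of set 2, 692 without day 4 of set 1 and 712 without day 24 of set 1.

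The sequences with the largest rises and falls were chosen by fold change among members at 10 CPM or more that passed, so their changes are a description and the p-values given for them are no further support. Ranking by fold favours sequences near 0 in one stage, and sR31f, sR32f, sR32g and sR29d reached the count minimum only in mature, day 20 and old libraries, so no p is given for these 4. Capitals in the 5 rises between old and young leaves mark a match to the B box letters of tRNA genes. No match to either box is marked in sR29d, and sR31d matches the A box letters in the other orientation.
sR31f: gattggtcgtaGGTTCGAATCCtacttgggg
sR32f: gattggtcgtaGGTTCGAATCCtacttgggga
sR32g: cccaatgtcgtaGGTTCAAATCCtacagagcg
sR29d: gggatataactcagcggtagagtgtcacc
sR31d: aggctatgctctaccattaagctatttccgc
No read of sR31f was listed in the 4 young libraries, and it stood at 50.9, 47.6, 34.7 and 47.1 CPM in the old ones. Set against a floor of 3 counts per young library, which is 0.318 to 0.488 CPM, it was at least 108-fold higher in old leaves. Its form with 1 more letter, sR32f, had 4 counts over the young libraries and 117 ± 18.9 CPM in old leaves. With 5 counts in young leaves, sR32g averaged 95.6 ± 27.7 CPM in old and 7.67 ± 8.30 in mature leaves. Young libraries held 4 counts of sR29d, which averaged 53.6 ± 19.4 CPM in old leaves. With 160 counts in young leaves, sR31d allows a firmer fold, 8.91 ± 0.73 on the log2 scale (984 ± 357 CPM in old, 41.8 ± 25.3 in mature and 4.95 ± 3.71 in young leaves, adjusted p = 2.75e-05, edgeR). Besides sR33e, the largest rises between old and mature leaves were those of sR31e (122 ± 113 and 2.10 ± 0.904 CPM, 6.52 ± 0.74, adjusted p = 0.000779) and sR32e (451 ± 142 and 12.7 ± 5.07 CPM, 6.15 ± 0.59, adjusted p = 0.000473). These 3 sequences were higher at days 24 and 28 than at any earlier age in both sets. For sR32e the levels at day 24 were 404 CPM in set 1 and 280 CPM in set 2, against 42.7 and 37.9 CPM at day 20.

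The largest falls were of sequences that were highest at day 4 or 8 and lowest at day 28 in both sets. Besides sR33d, they were sR29f, sR29e, sR30e and sR30d.
sR29f: gccctcacagcccaggcacaacgacgcaa
sR30e: agccctcacagcccaggcacaacgacgcaa
sR30d: ccgtaacttcgggagaaggggtgcctcctc
sR29e: ataTAGCTCAGTTGGtagagctccgctct
In set 1, sR29f stood at 34.5, 16.3, 9.01, 4.83, 1.93, 0.676 and 0.199 CPM from day 4 to day 28, a decline at every step. In set 2 it was at 29.7, 33.9, 10.6, 2.88, 1.94, 0.451 and 0.146 CPM. It fell by 5.43 ± 0.57 on the log2 scale between old and young leaves and by 3.29 ± 0.57 between old and mature leaves. Its form with 1 more letter at the start, sR30e, fell by 4.81 ± 0.52 between old and young leaves (adjusted p = 5.49e-05, edgeR), and sR30d fell by 4.39 ± 0.61 (adjusted p = 0.000246). Lacking the first 4 letters of sR33d, sR29e fell by 4.93 ± 0.52 and came to 0.917% to 3.90% of sR33d in old and 1.73% to 5.82% in young libraries. Counts in old leaves were small for these, with 9 reads of sR29f and 15 of sR29e over the 4 old libraries. Neither sR29f nor sR29e reached the count minimum in any old library, so no p is given for either.

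The day of the highest mean level over both sets varied between members. It was day 4 in 3549 of 8675 members (40.9%, against 37.7% of all listed sequences) and day 28 in 1237 (14.3%, against 9.92%). Among the 104 abundant members the highest day was day 28 in 45 (43.3%) and day 4 in 18, which the choice by mean level over all libraries may favour. Both sets gave the same highest day in 14.8% of members and in 32.7% of the abundant ones. The share was 21.2% of all listed sequences and 24.8% of those of 18 to 28 nt. Agreement between sets was thus low for members, so peak days, and the split by day above, are uncertain for most. The levels of members in the 2 sets of a day correlated at r = 0.781 to 0.924, a description across sequences, which are not independent replicates.

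A search for short letter patterns, made after the abundant sequences had been seen, described what the members shared. The A box and B box are stretches inside tRNA genes that RNA polymerase III factors bind. They were searched in both orientations as TNGNNNANNGG or TNGNNNANNNGG for the A box and GGTTCNANNCC for the B box. Of the members 13.8% held the A box letters and 2.86% the B box letters, against 6.49% and 0.653% of sequences of 18 to 28 nt and 15.1% and 4.35% of those of 34 to 48 nt. Longer sequences have more positions at which a match can start, and both shares were higher at 34 to 48 nt than among the members. Of the 104 abundant members 48 (46.2%) held the A box letters, and in 43 of these 48 the match began at position 8. Over all 1195 members with a match, position 8 was also the commonest start, in 329. Reads with the A box letters made up 60.1% ± 11.9 of 29 to 33 nt reads in old, 40.9% ± 4.64 in mature and 25.7% ± 6.52 in young leaves. An order of old, mature and young was also seen at other lengths. In that order the share was 33.4%, 27.8% and 19.8% at 34 to 48 nt, and 8.67%, 5.85% and 2.81% at 18 to 28 nt. The share differed by length, at 89.7% ± 4.27 of 32 nt reads and 92.3% ± 3.09 of 33 nt reads in old leaves, against 28.97% ± 11.6 and 52.9% ± 8.45 in young ones. For 29 nt it ran the other way, at 3.09% ± 1.24 in old and 15.7% ± 7.00 in young leaves. The main 29 nt sequence, sR29a, lacks these letters. A match is a description of letters and does not place a sequence in a tRNA gene.

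Transcripts of genes for RNA-cutting enzymes are given from the total RNA tables as values without a test. RNS2, a vacuolar RNase T2, averaged 175 ± 11.03 FPKM at day 30 and 13.5 ± 5.68 at day 4 (SD, n = 2 each). RNS1, a secreted RNase T2, averaged 16.1 ± 4.72 FPKM at day 30 and was listed at 0 at day 4. RNS3 averaged 19.4 FPKM at day 30 and 2.56 at day 4. Day 30 has no small RNA library. At days 24 and 28, means were 65.1 and 121 FPKM for RNS2 and 0.672 and 6.36 FPKM for RNS1. For RNS3 they were 0.773 and 2.30 FPKM, not above its mean at day 4. The RNase T2 gene AT1G14210 lay between 0.977 and 5.04 FPKM, and AT1G14220 was listed at 0 in every library. The Dicer-like genes DCL1, DCL2, DCL3 and DCL4 lay between 0.189 and 6.28 FPKM throughout, and their courses differed. Means at days 4 and 28 were 3.01 and 5.93 FPKM for DCL1 and 1.03 and 3.87 FPKM for DCL2. They were 2.03 and 4.49 FPKM for DCL4, whereas DCL3 was lower at day 28, at 0.928 and 0.455 FPKM. The part of these enzymes in the small RNA levels was not tested.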

How the data were processed

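Small RNA values are read counts per sequence, as the authors deposited them in 1 table per set, and those of total RNA are FPKM, deposited by the authors for each transcript. The submitters' processing notes name TopHat 1.4.0, Cufflinks and TAIR10, but not their use on small RNA; adapter trimming and the listing limit are not given in the sources used here. Entries written in RNA letters were left out, a repeated entry was used once, and a sequence and its reverse complement were made 1 feature; no member had differing counts. FPKM was summed per gene.

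Counts of 46841 features (at least 10 counts in at least 2 of 14 libraries; 662 members did not pass) were fitted in edgeR 4.0.16 (quasi-likelihood, TMM factors from 0.502 to 2.18, day as factor, set as block) under R 4.3.3, with Benjamini-Hochberg adjustment over all features and a threshold of 0.05. Fitted changes are means over days on the log2 scale, so they differ from ratios of mean CPM, which uses the listed reads of a library as its total. The SE is the change divided by the square root of F. Levels, shares, families and ladders have no test. Alternatives were library sizes alone, RLE factors, no filter, no block, either table, the larger of the counts, DESeq2 1.42.0 and leaving out each library. The fit was also run on simulated counts with known changes, balanced between rises and falls and without a difference between sets. Such counts lack the shift between lengths seen here, so that run cannot check the scaling. Python 3.11.15 was used with numpy 2.4.6, pandas 2.3.3, scipy 1.17.1 and matplotlib 3.10.9.

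Sequences named are the 3 most abundant of each length, the leads of the 5 largest families, the 5 largest rises and falls between old and young leaves and the 3 largest rises and falls between old and mature leaves, among members at 10 CPM or more that passed and moved one way in both sets. The thirteenth group's lead and the forms within families were chosen after their values were seen. The members and lists were chosen with earlier results of these data known.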

Additional observations from a re-analysis of the deposited data

Results flagged for a closer look

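Of 108 groups of 4 libraries examined for a single value far from the rest, 2 stood out, and chance flags about 1 in 20 such groups. The level of sR33d in the day 24 library of set 1 was 53.7 CPM, where the other old libraries held 15.3 to 21.0 CPM. The share of 29 to 33 nt reads in the 10 most abundant sequences was 35.0% in the day 4 library of set 2, where the other young libraries held 47.7% to 50.2%.

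Sequences of 29 to 33 nt that were listed in one table alone are outside the comparisons above. There were 278 in the table of set 1, with at most 0.349% of the reads of this length range in a library, and 6756 in the table of set 2, with at most 5.31%.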

How the results depend on the processing

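With library sizes alone, 1227 members were lower in old than young leaves, and 687 higher and 1033 lower in old than mature leaves. Without both day 4 libraries, chosen after seeing the data, 110 were lower in old than young leaves. In mature against young leaves 0 were then higher and 0 lower, as over all sequences tested. DESeq2 called 17 lower in mature than young leaves. Differences between the 2 sets of a day recurred across days only in part. For these, 11 of 21 pairs of days had r over 0.1, with a range of -0.288 to 0.592 and a median of 0.142. Without the set as a block 53 members were lower in old than mature leaves. The cause of these moves was not tested. Per 100 reads outside 29 to 33 nt, the differences of old minus young leaves were 153 reads in all, and 39.7, 7.07, 17.8, 63.2 and 25.2 at 29, 30, 31, 32 and 33 nt. Without the most abundant sequence they were 36.7 percentage points in all, and -0.000806, 0.976, 3.505, 7.61 and 4.86 by length. Without the 5 largest families the difference was 4.44, mainly in set 1, and old and young libraries of set 2 overlapped. The difference in the 10-sequence share was 39.1 for the same 10 sequences in every library and 10.8 for the first alone, and 148 of 177 members at 50 CPM or more had a shared end.

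Leaving out 1 library gave 1015 to 1831 members higher and 78 to 203 lower in old than young leaves, 355 to 1327 and 13 to 142 for old against mature, 0 to 263 and 0 to 16 for mature against young, and 519 to 1305 changed over days. The differences in share were 48.5 to 53.6 in all, 12.8 to 16.3 at 29 nt, 1.68 to 2.20 at 30 nt, 5.14 to 6.00 at 31 nt, 17.6 to 23.3 at 32 nt and 7.28 to 9.34 at 33 nt, and 28.5 to 33.5 for the 10-sequence share. Of 608 values of named sequences, 590 kept direction and side of the threshold, 13 lost their call, 3 gained one and 2 turned: sR30c, at -0.34 to 0.048 with 1 library left out and at -1.21 with library sizes alone, stood at 0.048 when day 4 of set 2 was left out and at 0.041 when day 8 of set 2 was. sR29b, sR30d (old against mature) and sR33c lost their calls without single libraries, at adjusted p = 0.0520 to 0.0828, 0.0540 to 0.0771 and 0.0518 to 0.0725. Sequences under the listing limit, the unknown strand and 2 libraries per day limit what can be said of rare members.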
